A study of Bos taurus with 25 samples.

Results

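The genes described here move folate into cells or keep it there. Of 7 such genes, FOLR1, FOLR2, SLC19A1, SLC46A1, SLC25A32, FPGS and GGH, 5 could be paired with probes of the array through RefSeq accessions, with 9 probes in all out of the 43653 probes that are not controls. FOLR1, the alpha folate receptor, and SLC25A32, the mitochondrial folate carrier, had no paired probe and were not analysed here. FOLR2 and FPGS had 1 probe each, SLC19A1 and GGH had 2, and SLC46A1 had 3. For each gene the probe with the highest mean over all arrays is called the main probe.

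Folates are carriers of single carbon units for the synthesis of purines, of thymidylate and of methionine, and the liver is the main store of the vitamin. Reduced folates and folic acid enter cells through carriers of the solute carrier family or through receptors that bind folate at the cell surface. Inside the cell, folates are held back by the addition of a chain of glutamate residues, and removal of this chain allows them to leave.

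Biopsies were taken from lactating Holstein cows 64 ± 3 days after calving, after weekly intramuscular injections of 5 mL. Control cows received saline, B9 cows 320 mg of folic acid, B12 cows 10 mg of cyanocobalamin and B9 + B12 cows both doses, and all cows were fed the same type of diet, formulated to meet their requirements. The 25 one-colour arrays hold the liver of 12 cows (3 control, 3 B9, 4 B12 and 2 B9 + B12) and the mammary gland of 13 cows (3 control, 3 B9, 4 B12 and 3 B9 + B12), and 12 cows gave both tissues. The RNA of each array came from 1 cow, and the number of arrays limits the precision. A biopsy holds several cell types, so that fewer cells of a type and less RNA per cell cannot be told apart.

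The labelled tissues were checked against their markers. All 7 hepatocyte markers were higher in the liver, by 5.79 to 11.2 on the log2 scale, and 5 of the 6 paired markers of milk-secreting epithelium were higher in the gland, by 8.66 to 11.2, while KRT8, a keratin of simple epithelia, was 1.60 higher in the liver. Some of these marker differences are approximate. FGB and AHSG were well above background on 4 and 7 of 13 mammary arrays, and BTN1A1 on 1 of 12 liver arrays. The main probes of the 5 genes were well above background on all 25 arrays, and no array was saturated for them. A pair of liver arrays, those of cow 57 (B9) and cow 32 (B9 + B12), had a median correlation of 0.972 and 0.973 with the other liver arrays, against 0.989 to 0.992 for the rest. Cow 32 also had the lowest signal over background of all arrays (2.30). The other liver arrays of its slide, those of cow 37 (B12) and cow 43 (control), were low as well, with 3.2 and 3.6. The remaining liver arrays had 5.33 to 10.5. The main results on the liver are also given without the liver arrays of cows 57 and 32.

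Levels in the liver and gland are log2 intensities after quantile normalization over both tissues together. All 5 genes had a higher level in the liver than in the mammary gland, and for GGH, SLC19A1, FOLR2 and SLC46A1 the difference passed the threshold of an adjusted p of at most 0.05 (limma) with a change of at least 2-fold. FPGS passed the adjusted p but not the fold. Among all probes 18.7% passed the threshold, 8.79% higher in the liver and 9.89% higher in the gland. Of the 27841 different gene or transcript names on the array, 20.2% had at least 1 probe that passed. Over the 9 probes the median difference was 1.06, against −0.03 over all probes of the array.

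**Figure D1:**
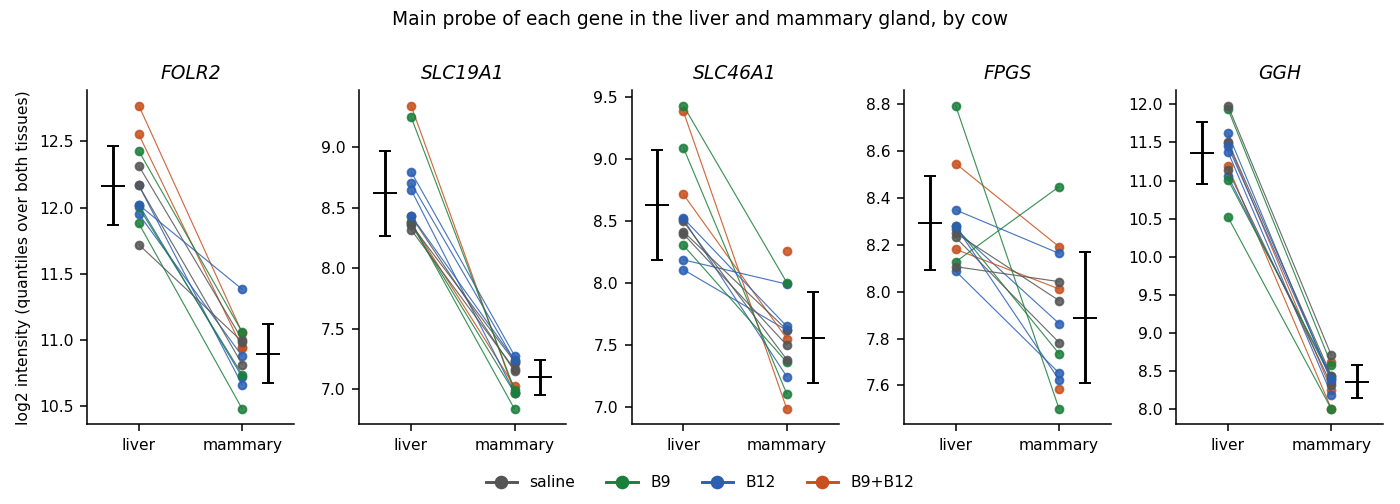
Log2 intensity (vertical axis, quantiles over both tissues, a separate scale in each panel) of the main probe of each gene in the liver and mammary gland. Points are single arrays coloured by treatment, lines join both tissues of a cow, and bars give the mean and SD of the 12 liver and 13 mammary arrays. The tissues do not overlap for FOLR2, SLC19A1 and GGH, and they overlap for SLC46A1 and FPGS. How common such a separation is among all probes was not computed.

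SLC19A1, the reduced folate carrier, is the carrier through which most cells take up reduced folates. Its main probe (A_73_111483) ranged in the liver from 8.32 to 9.34 with a median of 8.43, and in the gland from 6.84 to 7.28 with a median of 7.15. The tissues did not overlap, and the liver was 1.54 higher (SE 0.10, 2.92-fold, adjusted p = 4.76e-11, limma). Within cows the difference was 1.53 ± 0.40 (SD, n = 12) with a lowest value of 1.13, and an exact sign-flip permutation test over cows, two-sided, gave p = 0.000488, the smallest value that 12 cows allow. Of all probes, 38.9% had the same sign in all 12 cows. The share of all probes whose tissues do not overlap was not computed. The largest differences within cows, 2.26 and 2.37, were those of cows 57 and 32. Without these liver arrays the limma difference was 1.35 (adjusted p = 6.32e-14). The second probe (A_73_P309031) was dimmer, well above background on 12 liver arrays and on 6 of 13 mammary arrays, and its difference was 0.49 (SE 0.07), higher in the liver in 12 of 12 cows. The mean of both probes gave 1.02.

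SLC46A1, the proton-coupled folate transporter, absorbs folate in the intestine and works best at an acid pH. Its main probe (A_73_P042316) lay between 8.11 and 9.43 on the liver arrays (median 8.51) and between 6.98 and 8.26 on the mammary arrays (median 7.55), so that the highest mammary array lay above the lowest liver array. The liver was 1.14 higher (SE 0.15, 2.20-fold, adjusted p = 1.54e-06, limma). Cows differed widely, from 0.20 in cow 40 to 2.40 in cow 32, and all 12 were higher in the liver (exact sign-flip p = 0.000488). The call of SLC46A1 is close to the threshold of 2-fold. Its difference was 0.99 (adjusted p = 2.26e-05) without the liver arrays of cows 57 and 32, and 0.87 (adjusted p = 0.0189) when slides were fitted as a fixed block. The other probes had smaller differences, 0.42 (A_73_104600) and 0.38 (A_73_P265486), both with the same sign in 12 of 12 cows. They were well above background on 12 and 6 of the 13 mammary arrays, and the mean of the 3 probes gave 0.65.

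FOLR2 encodes the beta folate receptor, a surface protein that binds folate and is known as a marker of resident tissue macrophages. The single probe lay between 11.72 and 12.77 on the liver arrays (median 12.10) and between 10.48 and 11.38 on the mammary arrays (median 10.94), without overlap. The liver was 1.32 higher (SE 0.09, 2.50-fold, adjusted p = 9.45e-11, limma). The difference within cows was 1.27 ± 0.32 (SD, n = 12), from 0.64 in cow 52 to 1.72 in cow 32 (exact sign-flip p = 0.000488). FOLR2 has near relatives, FOLR1 and FOLR3, which neighbour it in the ARS-UCD2.0 assembly, and whether its probe also binds their RNA could not be checked without probe sequences.

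Macrophage markers moved in the same direction as FOLR2 between the tissues. Of 10 listed markers 7 were paired with a probe, and all 7 were higher in the liver and passed the threshold, from 1.06 (CD14) to 3.25 (C1QA), with a median of 1.78. Their summed intensity ranged from 16.2 to 16.8 on the log2 scale over the liver arrays and from 13.5 to 14.6 over the mammary arrays. Intensities were summed before log2 was taken, so that the brightest markers weighed most. C1QA and C1QB had liver means of 15.6 and 14.8, and the others had 8.15 (CD163) to 12.3 (CD14). CD163, CD68 and CSF1R were all well above background on every liver array, and CD163 on 10 of 13 mammary arrays. The part of macrophage numbers in the FOLR2 difference was not tested.

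FPGS, folylpolyglutamate synthase, adds the glutamate chain that retains folate in the cell. Its probe lay between 8.09 and 8.79 on the liver arrays (median 8.26) and between 7.50 and 8.45 on the mammary arrays (median 7.86). The tissues overlapped. The liver was 0.41 higher (SE 0.11, 1.33-fold, adjusted p = 0.00237, limma), and 63.2% of all probes passed the adjusted p at any fold. Within cows the difference was 0.38 ± 0.39 (SD, n = 12), higher in the liver in 11 of 12 cows (exact sign-flip p = 0.00391). Cow 39 was the exception, with 8.13 in the liver and 8.45 in the gland, and cow 57 had the largest difference, with 8.79 in the liver and 7.50 in the gland. The adjusted p was 0.0567 with the slide as a fixed block and 0.0656 when arrays were scaled by their 75th percentile.

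GGH, gamma-glutamyl hydrolase, is the lysosomal enzyme that removes the glutamate chain. By the main probes, it had the largest difference of the 5 genes. The main probe (A_73_P364766) lay between 10.52 and 11.98 on the liver arrays (median 11.41) and between 8.0 and 8.71 on the mammary arrays (median 8.40), and no arrays overlapped. The liver was 2.99 higher (SE 0.14, 7.94-fold, adjusted p = 1.09e-13, limma), with 3.02 ± 0.30 (SD, n = 12) within cows and a range of 2.52 to 3.35 (exact sign-flip p = 0.000488). The second probe (A_73_P048741) gave a smaller difference, 1.06 (SE 0.18, adjusted p = 3.03e-05), and its tissues overlapped, with 8.74 to 9.77 in the liver and 7.25 to 8.89 in the gland. It was higher in the liver in 12 of 12 cows, by 0.18 to 1.92. The mean of both probes gave 2.03.

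**Figure D2:**
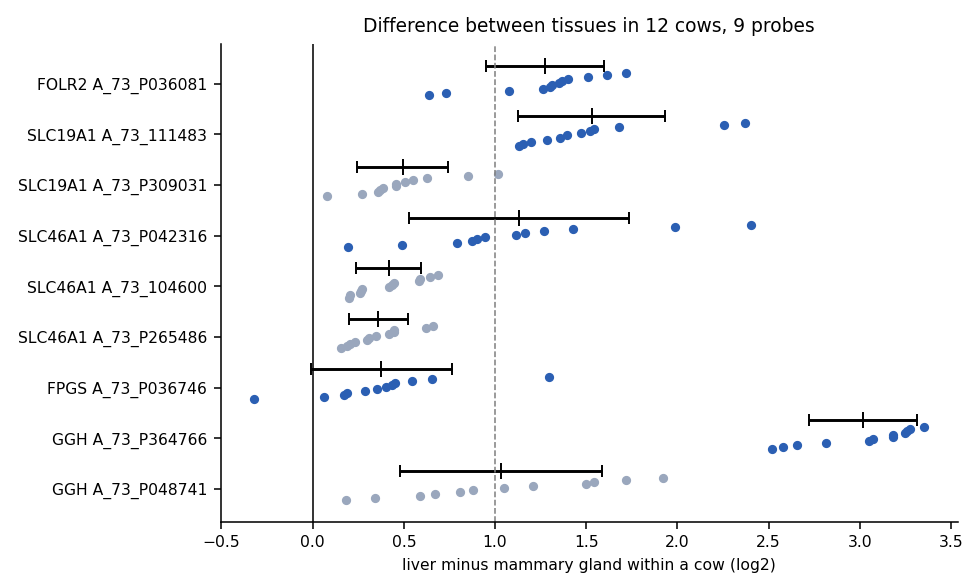
Liver minus mammary gland within each of 12 cows (horizontal axis, log2, quantiles over both tissues) for the 9 probes. Blue points are cows for the main probe of a gene and grey points cows for its other probes, black bars give the mean and SD, and the dashed line marks 2-fold. All cows lie above 0 for 8 of the 9 probes, and the main GGH probe lies at 2.52 or more in every cow.

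Slides hold up to 4 arrays, and 4 of the 8 slides held both tissues. Within these 4 slides the liver was higher for all 9 probes. The share of all probes for which this holds was not computed. The differences ranged from 2.54 to 3.74 for the main probe of GGH, from 1.21 to 1.58 for that of SLC19A1, from 0.94 to 1.15 for FOLR2, from 0.64 to 1.60 for the main probe of SLC46A1 and from 0.31 to 0.70 for FPGS.

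The scale between tissues rests on the normalization. With quantiles over both tissues, 47.1% of the probes past the threshold were higher in the liver. The share was 31.6% for the processed signal, 19.3% with scaling by the 75th percentile, and 90.2% with quantiles within each tissue. The sign of the 5 main probes was the same, higher in the liver, under each of these. Relative to the median of all probes under each scaling, GGH lay 3.01 to 3.95 higher, SLC19A1 1.57 to 2.60, FOLR2 1.35 to 2.60, SLC46A1 1.16 to 1.97, and FPGS 0.43 to 1.03.

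The order of the treatment groups within each tissue is given on the scale of quantiles within that tissue, which cannot be set against the scale used between tissues. In the liver, mean FOLR2 was 13.62 ± 0.17 in B9 + B12 cows (SD, n = 2), 13.01 ± 0.32 in B9 cows (n = 3), 12.97 ± 0.35 in control cows (n = 3) and 12.94 ± 0.10 in B12 cows (n = 4), and only B9 + B12 did not overlap with the group next to it. Liver SLC19A1 was 9.47 ± 0.75 in B9 + B12, 9.26 ± 0.56 in B9, 9.24 ± 0.17 in B12 and 8.93 ± 0.07 in control cows, with only the last pair apart. Liver SLC46A1 was 9.69 ± 0.52 in B9 + B12, 9.56 ± 0.64 in B9, 9.01 ± 0.06 in control and 8.89 ± 0.25 in B12 cows, and all neighbours overlapped. All neighbours also overlapped for liver FPGS, with means from 8.73 (control) to 8.96 (B9), and for liver GGH, from 11.97 (B9) to 12.39 (control). The arrays of cows 57 and 32 set much of this order. When they were left out, SLC19A1 went from 0.33 to 0.00 for B9 against control and from 0.54 to 0.01 for B9 + B12 against control, while B12 stayed at 0.31 and became the highest group. FPGS went from 0.23 to 0.01 for B9 and from 0.19 to −0.02 for B9 + B12. For B9 against control, FOLR2 went from 0.04 to −0.14 and SLC46A1 from 0.56 to 0.29.

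In the gland, neighbouring groups overlapped for all 5 genes. The group means ranged from 10.04 (B9) to 10.25 (B9 + B12) for FOLR2 and from 6.65 (B9) to 6.85 (B12) for SLC19A1. They ranged from 7.11 (B9) to 7.22 (B12) for SLC46A1, from 7.38 (B12) to 7.47 (B9 + B12) for FPGS, and from 7.79 (B9 + B12) to 7.96 (control) for GGH.

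**Figure D3:**
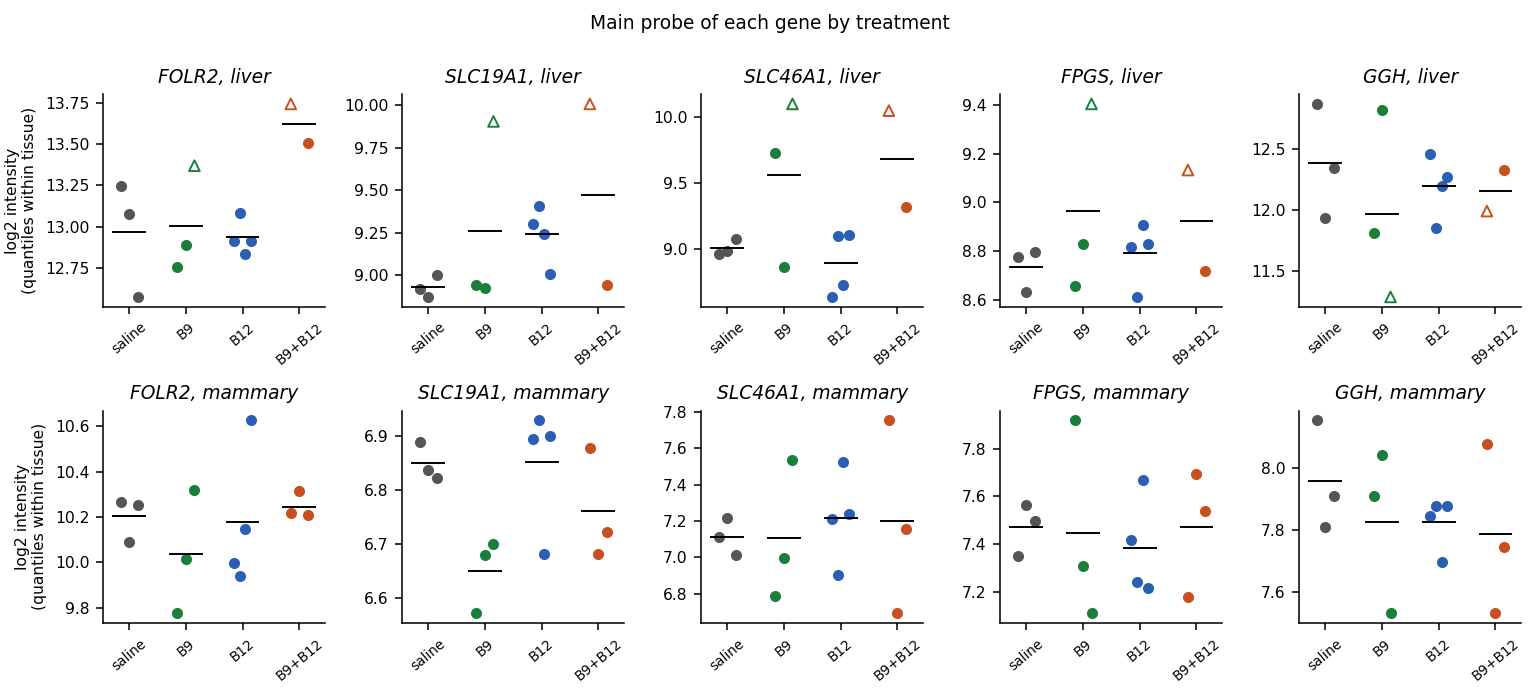
Log2 intensity (vertical axis, quantiles within each tissue, a separate scale in each panel) of the main probe of each gene by treatment, liver above and mammary gland below. Points are single arrays, horizontal lines are group means, and open triangles mark the liver arrays of cows 57 and 32. These arrays hold the highest liver values of SLC19A1, SLC46A1 and FPGS.

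The comparisons of each treatment with control cows asked whether injected vitamins change the expression of the genes that take up and keep folate. None of the 5 genes passed the threshold in the liver or the gland for B9, B12 or B9 + B12, by limma or by Cyber-T. Of all 43653 probes, limma called 0 in 5 of these comparisons and 1 (0.00229%) in the liver of B12 cows. Over the 6 comparisons 1.95% to 5.72% of all probes had an unadjusted p under 0.05, and Cyber-T called 5 to 43 probes. Over the 9 probes the differences from control ranged from −0.41 to 0.68 in the liver and from −0.24 to 0.11 in the gland. Probes with an unadjusted p under 0.05 (limma) were 1 of 9 in the liver of B9 + B12 cows, where 5.72% of all probes were, and 1 of 9 in the gland of B9 cows (2.55% of all probes). They were 0 of 9 in the other comparisons with control, where 3.52% of all probes were in the liver of B9 cows, 2.11% in the liver of B12 cows, 2.29% in the gland of B12 cows and 1.95% in the gland of B9 + B12 cows. The groups of the main probes were apart in 4 cases, described below by gene, and in none for the liver of B9 cows, where 8.46% of all probes lay apart, the gland of B12 cows (3.89%) or the gland of B9 + B12 cows (6.91%). The comparisons of a tissue share their control cows.

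FOLR2 in the liver was 13.74 and 13.50 in the B9 + B12 cows, and 12.58, 13.08 and 13.25 in the control cows. Both treated arrays lay above all controls. The difference was 0.65 (SE 0.21, unadjusted p = 0.0126, adjusted p = 0.688, limma), and the exact permutation p, two-sided, was 0.20, where 2 arrays against 3 cannot go below 0.10. Without the liver arrays of cows 57 and 32 it was 0.54, from 1 B9 + B12 array (unadjusted p = 0.0451, adjusted p = 1.00, limma). In this comparison 21.9% of all probes had treated arrays on 1 side of all control arrays. Within slides, cow 38 lay 0.26 above the control cow of its slide and cow 32 lay 0.66 above that of its own. The summed macrophage markers, in which C1QA and C1QB weighed most, are given on the scale over both tissues. Those of cow 32 were the highest of the liver arrays (16.8), and those of cow 38 were 16.5, against 16.2 to 16.6 in control cows. Their part in the difference was not tested.

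SLC46A1 in the liver was 10.05 and 9.32 in B9 + B12 cows, and 8.96, 8.98 and 9.08 in control cows. Both treated arrays lay above all controls, the difference was 0.68 (SE 0.33, unadjusted p = 0.0705, adjusted p = 0.688, limma) and the exact permutation p was 0.20. It was 0.36 for cow 38 and 1.07 for cow 32 within their slides. Without the liver arrays of cows 57 and 32 the difference was 0.31, from 1 B9 + B12 array (adjusted p = 1.00). The other probes overlapped with control and were each 0.15 higher, with an exact permutation p of 0.40 and 0.60, and the mean of the 3 probes gave 0.33. When the arrays of cows 57 and 32 were left out, these probes gave −0.01 (A_73_104600) and −0.05 (A_73_P265486). Without cow 38 the difference of the main probe was 1.04, from the array of cow 32 alone.

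The 2 by 2 layout of the treatments allowed all cows that received B9, alone or with B12, to be compared with the others. In the liver, SLC46A1 of cows with B9 was 8.86, 9.32, 9.73, 10.05 and 10.10, and of the 7 cows without B9 the values lay between 8.63 and 9.11 (median 8.98). Of the 5 cows with B9, 4 lay above all cows without it. The mean of the B9 effects with and without B12 was 0.68 (SE 0.22, unadjusted p = 0.0114, adjusted p = 0.491, limma), and the exact permutation test gave p = 0.0202. In this comparison 9.42% of all probes had an unadjusted p under 0.05, and 3 of the 9 probes did. Once the liver arrays of cows 57 and 32 were left out, it was 0 of the 9 probes, with 3.35% of all probes. Left out together, the liver arrays of cows 57 and 32 reduced the limma difference to 0.36 (adjusted p = 1.00) and brought the exact p to 0.133, with 3 cows against 7. When slides were fitted as a fixed block it was 1.09 (adjusted p = 0.166). Only 2 slides held liver arrays with and without B9, and the differences within them were 0.75 and 1.01, each including 1 of the arrays of cows 57 and 32. The second probe (A_73_104600) gave 0.21 (unadjusted p = 0.0497; exact p = 0.0354), which was 0.07 without those arrays (unadjusted p = 0.397), and the third (A_73_P265486) had an exact p of 0.101. The mean of the 3 probes gave 0.35 (adjusted p = 0.476, limma).

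FOLR2 gave 0.36 for any B9 in the liver (SE 0.14, unadjusted p = 0.0276, adjusted p = 0.491, limma), with an exact permutation p of 0.144 for the cows pooled. It was 0.21 without the liver arrays of cows 57 and 32 (adjusted p = 1.00). The value was 0.56 with scaling by the 75th percentile and 0.60 with the processed signal, with adjusted p of 0.393 and 0.470. Within the 2 slides the differences were 0.19 and 0.66. The interaction of B9 with B12 in the liver was 0.65 for FOLR2 (SE 0.28, unadjusted p = 0.0441, adjusted p = 1.00, limma). It did not pass the threshold, and 4.05% of all probes had an unadjusted p under 0.05. Without the liver arrays of cows 57 and 32 the interaction was 0.71 (unadjusted p = 0.0363, adjusted p = 0.83), with the B9 + B12 group then held by the single array of cow 38, which is assumed to vary like the other groups. For any B12 against none, 0 of the 9 probes had an unadjusted p under 0.05, in the liver (2.87% of all probes) or in the gland (1.59%), and the interaction in the gland also gave 0 of 9 (3.15%).

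SLC19A1 in the liver was 9.01, 9.24, 9.30 and 9.41 in B12 cows, and 8.87, 8.92 and 9.0 in control cows. All 4 treated arrays lay above the controls. In this comparison 4.97% of all probes had treated arrays on 1 side of all control arrays. The difference was 0.31 (SE 0.28, unadjusted p = 0.299, adjusted p = 1.00, limma), and the exact permutation p was 0.0571, where 4 arrays against 3 cannot go below 0.0286. Cows 40 and 37 lay 0.24 and 0.53 above the control cows of their slides. The SE of limma is shared over the 4 groups of the liver, in which the arrays of cows 57 and 32 were at 9.90 and 10.01. Without these arrays the difference was the same, 0.31, with a SE of 0.09 (unadjusted p = 0.0108, adjusted p = 1.00, limma). The second probe (A_73_P309031) overlapped with control, with a difference of 0.13 and an exact permutation p of 0.171.

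In the gland, SLC19A1 was 6.57, 6.68 and 6.70 in B9 cows and 6.82, 6.84 and 6.89 in control cows. All B9 arrays lay below all control arrays, and 7.01% of all probes had treated arrays on 1 side of all control arrays. The difference was −0.20 (SE 0.07, unadjusted p = 0.0204, adjusted p = 1.00, limma), and the exact permutation p was 0.10, the smallest that 3 arrays against 3 allow. For any B9 against none it was −0.14 (SE 0.05, unadjusted p = 0.0151, adjusted p = 1.00, limma), where 3.45% of all probes had an unadjusted p under 0.05, with an exact permutation p of 0.0233 for 6 cows against 7. Within slides the mammary arrays with B9 lay below those without it on 5 of 5 slides, by −0.01 to −0.23. On slides 2 and 3 a B9 cow was set against a B12 cow, and on slide 7 a B9 + B12 cow against a control cow, so that B9 and B12 cannot be told apart on these 3 slides. Slide 5 (−0.19) held a B9 + B12, a B12 and a control cow, and slide 6 (−0.11) held all 4 groups. The second probe, near background in the gland, gave 0.00 for B9 against control, so that the mean of both probes was −0.10. For any B9 the second probe was 0.05 higher with B9 and the mean of both was −0.05. The difference was −0.37 with scaling by the 75th percentile and −0.49 with the processed signal, with adjusted p of 0.366 and 1.00. For any B9 these settings gave −0.24 and −0.40, with adjusted p of 0.487 and 1.00. Without background correction the values were −0.30 for B9 against control and −0.22 for any B9.

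GGH and FPGS had no comparison with control with an unadjusted p under 0.05 or with groups apart. The main probe of GGH was 0.41 lower in the liver of B9 cows, where the array of cow 57 held the lowest liver value (11.29) and cow 41 one of the highest (12.82). Without the liver arrays of cows 57 and 32 the difference was −0.07 (adjusted p = 1.00, limma). The second GGH probe was 0.08 higher in B9 cows than in control cows, with an exact permutation p of 1.0. With all arrays, for none of the 9 probes did the effect of B9, B12 or both differ between the tissues at an unadjusted p under 0.05, and the smallest was 0.0608 (limma, smallest adjusted p = 0.836). Among all probes this share was 2.36% for B9, 1.82% for B12 and 4.26% for both. Without the liver arrays of cows 57 and 32, the B12 effect on SLC19A1 was 0.28 higher in the liver than in the gland (SE 0.12, limma). This did not pass the threshold, and the share of all probes was not computed without these arrays.

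The liver arrays of cows 57 and 32 held extreme values for several genes. Among the 12 liver arrays they ranked 1 and 2 for the main probe of SLC46A1 (cow 57 first), 1 and 2 for FPGS, 1 and 2 for SLC19A1 (cow 32 first), and 3 and 1 for FOLR2. For the main probe of GGH they ranked 12 and 8, and for its second probe 12 and 10. The second probes of SLC46A1 and SLC19A1 had the same ranks as the main ones, but the third probe of SLC46A1 (A_73_P265486) ranked 9 on the array of cow 57 and 1 on that of cow 32.

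Probes of the same gene were compared over the arrays of a tissue, with 10 relations in all. The GGH probes moved together in the liver (Pearson r = 0.78, permutation p = 0.00334, adjusted 0.0111; Spearman rho = 0.79, permutation p = 0.00340, adjusted 0.0340; n = 12, r = 0.78 without the 2 arrays farthest from the median). In the gland they did not (r = 0.01, permutation p = 0.978; rho = −0.08, permutation p = 0.807; n = 13), and without the 2 farthest arrays r was −0.48. On the 4 mammary arrays of slide 6 the second GGH probe lay between 7.94 and 8.32, above the 9 other mammary arrays (6.90 to 7.77), while the main probe on slide 6 lay between 7.70 and 7.91, within the range of the others. FPGS was also higher on slide 6, with 7.50 to 7.92 and a mean of 7.66, against means of 7.17 to 7.49 on the other slides. Slide 6 held 1 array of control, 1 of B9, 1 of B12 and 1 of B9 + B12. With at most 4 arrays of a tissue, no correlation was computed within slides.

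**Figure D4:**
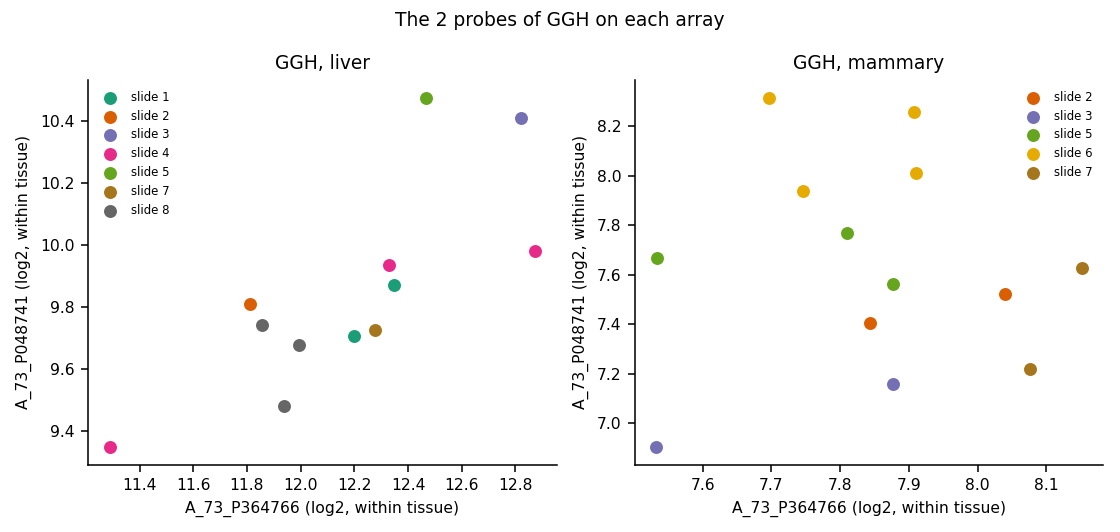
The second GGH probe (vertical axis) against the main GGH probe (horizontal axis), both as log2 intensity with quantiles within each tissue, for 12 liver arrays (left) and 13 mammary arrays (right), coloured by slide. The probes rise together in the liver (r = 0.78) and not in the gland (r = 0.01), where the 4 arrays of slide 6 lie at 7.94 or more for the second probe.

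The SLC19A1 probes moved together in the liver (r = 0.96, permutation p = 4e-05, adjusted 0.00040; rho = 0.70, permutation p = 0.0145, adjusted 0.0690; n = 12), and r was 0.82 without the 2 farthest arrays. In the gland r was −0.07 (permutation p = 0.830). For SLC46A1 the main and second probes had r = 0.80 in the liver (permutation p = 0.00284, adjusted 0.0111) and rho = 0.67 (permutation p = 0.0207, adjusted 0.0690). This r fell to 0.40 without the 2 farthest arrays. Leaving out extreme arrays also narrows the range, so whether the relation rested on them cannot be told. The other 5 relations had an adjusted p of 0.105 or more for r.

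The level of a gene in the liver was set against its level in the gland of the same cow for the 5 main probes. Only GGH had an adjusted p under the threshold for r (Pearson r = 0.72, permutation p = 0.00881, adjusted 0.0440), while Spearman's rho was 0.56 (permutation p = 0.0628, adjusted 0.314; n = 12). Without the 2 cows farthest from the median of the liver, r was 0.39. Leaving out extreme cows also narrows the range of levels, so whether the relation rested on them cannot be told. The r of the other genes ranged from −0.30 to 0.30, with an adjusted p of 0.516 or more. Without the 2 farthest cows r was −0.65 for SLC46A1 (−0.26 with them), 0.35 for SLC19A1 (−0.17 with them), 0.21 for FOLR2 and −0.16 for FPGS.

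Genes with the most similar pattern were sought among 8127 genes, by Pearson's r of the deviations from the group means over all 25 arrays. They are a description, and the arrays share slides and normalization. FOLR2 was nearest to TMEM39A (0.72), PAQR6 (0.69) and GPNMB (0.69), a glycoprotein of macrophages. Among the macrophage markers, the r of FOLR2 was 0.68 with VSIG4, a receptor of resident macrophages, 0.46 with CD68, and 0.06 to 0.27 with CD14, CSF1R, C1QA, CD163 and C1QB. The r differed by tissue for some markers. For CD163 it was −0.40 over the 12 liver arrays and 0.62 over the 13 mammary arrays, and for C1QA 0.62 in the liver and 0.00 in the gland, while VSIG4 had 0.69 and 0.68. SLC19A1 was nearest to PITPNA (0.92), CHST14 (0.88) and ENC1 (0.87), and SLC46A1 to DUSP14 (0.82), RBP4 (0.82) and PCOLCE2 (0.77). FPGS was nearest to DMBX1 (0.97), LMNB1 (0.96) and GOLGA1 (0.95), and GGH to MGST1 (0.79), PLD1 (0.77) and PLAA (0.77). Over the 23 arrays without those of the liver of cows 57 and 32, the r of the same genes fell most for SLC19A1, to 0.63 with PITPNA, 0.51 with CHST14 and 0.64 with ENC1. They were 0.60 to 0.63 for FOLR2, 0.72 to 0.84 for SLC46A1, 0.95 to 0.97 for FPGS and 0.65 to 0.70 for GGH. Of the macrophage markers, CD163 moved most, from 0.11 to 0.40.

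The other genes of folate metabolism and transport were taken from a list of 31, of which 23 were paired with a probe. Between the tissues 12 passed the threshold, 10 higher in the liver and 2 higher in the gland, and 11 did not pass. Over the array 18.7% of probes passed, 8.79% higher in the liver and 9.89% higher in the gland. The median of the 23 was 0.41, against −0.03 over all probes. The largest differences higher in the liver were those of enzymes that load and move single carbon units. SHMT1, the cytosolic serine hydroxymethyltransferase, was 15.3 in the liver and 7.71 in the gland, a difference of 7.62 (SE 0.13, adjusted p = 6.99e-21, limma). GLDC, the decarboxylase of the glycine cleavage system, differed by 5.18, MTHFD1, a cytosolic enzyme with several activities on folate-bound carbon units, by 4.19, and ALDH1L1, which oxidizes formyltetrahydrofolate, by 3.93. ABCG2, an exporter of folates that is known to carry riboflavin into milk, was higher in the gland, with 13.5 against 9.56 in the liver. Its difference was −3.88 (SE 0.11, adjusted p = 8.00e-17, limma). MTHFD2, the mitochondrial dehydrogenase and cyclohydrolase, was also higher in the gland, by −1.35 in liver minus gland. No gene of the list passed the threshold in any comparison of treatments, where 0 to 3 of the 23 had an unadjusted p under 0.05 (limma). The count of 3 was reached for any B9 in the gland, where 3.45% of all probes had such a p, and for the difference of the B9 effect between the tissues (2.36%).

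**Figure D5:**
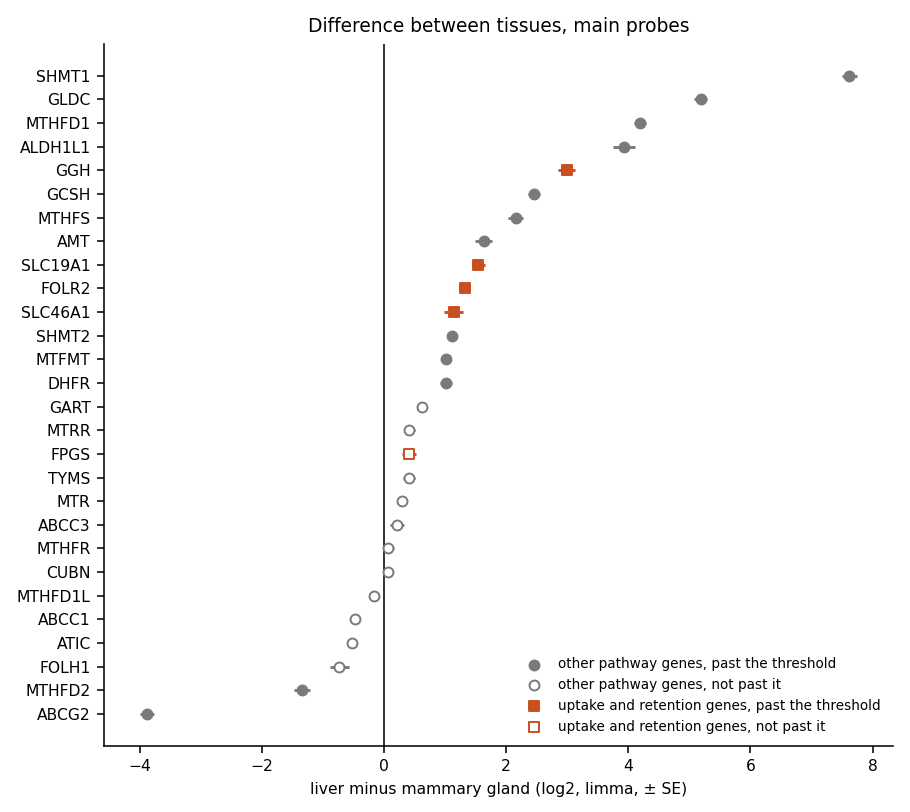
Liver minus mammary gland (horizontal axis, log2 from limma, with SE) for the main probes of the 5 uptake and retention genes (squares) and of 23 other genes of folate metabolism and transport (circles), in order of the difference. Filled marks passed the threshold. GGH lies among the enzymes with the larger differences, and ABCG2 at −3.88 has the largest difference in the other direction.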

How the data were processed

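Intensities came from 12 liver and 13 mammary arrays (one-colour, Agilent bovine). Per the file headers, the authors extracted the scans with Agilent Feature Extraction 10.7.3.1 (9.1 per the submitters' processing notes). The deposited files hold, for every spot, a median intensity, a local background intensity, calls of 0 or 1, and a processed signal with the background subtracted. None of these is normalized between arrays. The authors also deposited log2 values, background corrected by normexp and normalized between arrays. Their median absolute difference from normexp with an offset of 16 and quantiles within each tissue was 0.00186 (liver) and 0.000959 (gland), so that they were normalized by tissue.

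From the median intensity, the background was corrected with normexp (offset 50), outlier spots were left out, and quantile normalization was done over all arrays for differences between tissues and within each tissue for treatments. Spots of a probe were averaged on the log2 scale. The small additive offset understates the change of dim probes. The deposited log2 values were used as an alternative.

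Limma 3.58.1 (R 4.3.3) was fitted over all 43653 probes with Benjamini-Hochberg adjustment, with 1 spread for the groups of a tissue or, between tissues, for all 8 groups. The threshold was an adjusted p of at most 0.05 with at least a 2-fold change. Exact permutation tests (scipy 1.17.1), two-sided, were run for single probes, and correlations used 100000 permutations. Groups came from the sample titles. The members and lists were chosen with earlier results of these data known. A treatment difference was named where the main probe had an unadjusted p under 0.05 or all treated arrays lay on 1 side of all controls. Of the pathway list, the 4 largest differences past the threshold were named in each direction (2 in the gland), and for each gene the 3 of most similar pattern.

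Marker lists were also made for other cell types. Of those paired, 1 of 3 adipocyte markers passed the threshold (higher in the liver), 0 of 3 endothelial markers, 4 of 5 stromal markers (higher in the gland), 0 of 3 lymphoid markers and 1 of 4 muscle markers (higher in the gland).

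Symbols were paired with 23509 probes (53.9%) through RefSeq accessions of the ARS-UCD2.0 assembly. The array annotation uses the Btau_3.1 build, so that no position is given. Replicate numbers are cow numbers and pair both tissues of a cow. The correlation of deviations between the tissues of a cow was −0.25 to 0.26 (median 0.04) and above 0.1 in 4 of 12 cows. The code was tested on simulated data. The alternatives were another background correction, scaling, filter on dim probes, slide or cow as a block, Cyber-T (window 101, confidence 10), the mean of all probes, and each array left out in turn. Leaving out the liver arrays of cows 57 and 32, or those of the slide of cow 32, was chosen after seeing the data.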

Additional observations from a re-analysis of the deposited data

Results flagged for a closer look

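The groups of 4 arrays, those of the B12 cows, were examined for single arrays far from the others by Dixon's ratio, over 18 combinations of probe and tissue, of which chance flags about 1 in 20. The main probe of SLC19A1 in the gland of cow 40 was at 6.68 against a group median of 6.90 (ratio 0.862). The second probe of GGH in the liver of cow 36 was at 10.47 against a group median of 9.73 (ratio 0.955), while the main GGH probe of cow 36, at 12.47, was also the highest of its group. Of 45 tests of an interaction, 0 passed the threshold by limma and 1 had an unadjusted p under 0.05.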

How the results depend on the processing

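Of 767 alternative values of the counts and of the differences named by the rule, 762 were classed as unchanged. For a difference this meant the same direction and the same side of the threshold. A count could move somewhat and still be classed as unchanged, as the counts of 3 to 5 and of 10 to 17 below were. No difference turned its direction. The counts of genes past the threshold in 15 comparisons of treatments stayed at 0 under every alternative run. Between tissues 4 genes passed, with 3 to 5 under the alternatives and 4 with each array left out in turn. The pathway list gave 12, with 10 to 17 under the alternatives. SLC46A1 fell below 2-fold with scaling by the 75th percentile (0.93), with the slide as a fixed block (0.87), without the liver arrays of cows 57 and 32 (0.99) and with the mean of its probes (0.65), and FPGS rose above it with quantiles within each tissue (1.41). The scalings moved the median of all probes, −0.03 in the main setting, to −0.48 for the processed signal, −0.80 for the 75th percentile and 0.38 for quantiles within each tissue, and the number of probes past the threshold from 8156 to 19637, 18941 and 12988. The cause was not tested. Among differences for any B9 in the liver that the rule did not name, those of SLC19A1 (0.28 to −0.15, and 0.17 to −0.12 for its second probe), FPGS (0.18 to −0.03) and GGH (−0.22 to 0.03) turned their direction without the liver arrays of cows 57 and 32, and none passed the threshold with or without them. With the cow as a random or fixed replicate block 4 genes passed, and the block changed no other call. The groups of 2 to 4 arrays limit what could be detected for the treatments, and dim probes near background limit SLC19A1 and SLC46A1 in the gland.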
